A study of Mus musculus with 8 samples.

Results

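The smooth muscle contractile genes of mammary basal cells were followed between G0, in which cells rest outside the cycle, and G1, in which they grow ahead of DNA synthesis. The group was set by name and holds 10 genes (Acta2, Actg2, Cnn1, Myl9, Tagln, Mylk, Myh11, Tpm1, Tpm2 and Lmod1) of the 54837 gene identifiers in the table, and all 10 were among the 15192 with enough counts to be tested. RNA was sequenced from basal cells of the mammary gland of mice labelled C57BL/B6, given no treatment and sorted by cell cycle phase. There were 4 runs, and each supplied a G0 and a G1 library, 8 in all. The sources used here do not give the sort markers, the age and sex of the mice or any pooling of animals. Nor do they say whether a run is a mouse of its own, and p-values therefore reflect the spread among these libraries, part of which may be technical.

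Basal cells form the outer layer of the mammary ducts and alveoli, and most of them are myoepithelial cells, which contract under oxytocin to eject milk. They are epithelial cells, with keratins 5 and 14 and the transcription factor p63, but they build the contractile machine of smooth muscle. In that machine calcium-bound calmodulin activates myosin light chain kinase, which phosphorylates the regulatory light chain. The myosin heavy chain then pulls on filaments of smooth muscle actin, along which tropomyosin, calponin and transgelin lie. Many of these genes carry CArG boxes, the DNA element bound by serum response factor, and are switched on by that factor with myocardin-related coactivators.

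Levels are given as CPM, counts scaled to a common library size with TMM factors. Log2 fold changes are G1 over G0, with standard errors, and calls are at a Benjamini-Hochberg adjusted p of 0.05 over all tested genes. In the model that held only the phase, edgeR called 0 of the 10 genes higher in G1, against a background of 0% of all tested genes. In that fit 425 genes, 7 of the 10 contractile ones among them, had an unadjusted p under 0.05. With the phase alone, DESeq2 called 1 of the 10, Actg2, against 10 of all 15192 tested genes called higher and 24 lower. The same model in limma-voom called 0 of the 10 and 0 of all tested genes. The G0 and G1 libraries of a run deviated together, so a fit that adds the run (a replicate block) stands beside it. That blocked fit called 7 of the 10 higher, against 0.481% of all tested genes called higher, and 0 lower, against 0.764% called lower. Blocked values are given below unless the other fit is named.

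The fold changes of all 10 genes were positive, and their median was 0.48 against 0.01 over all tested genes. The lowest was 0.32 for Myh11 and the highest 0.98 for Actg2. Within runs, 8 of the 10 were higher in G1 in all 4 runs, against 11.3% of all tested genes. For 7 of the 10 (Acta2, Actg2, Cnn1, Myl9, Tagln, Tpm1 and Tpm2) every G1 library lay above every G0 library, against 0.829% of all tested genes. The median of the 10 genes in runs 1 to 4 was 0.39, 0.43, 0.66 and 0.57, while that of all tested genes was between -0.01 and 0.02. In bulk RNA, a larger share of contractile cells and more contractile RNA per cell cannot be told apart.

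**Figure D1:**
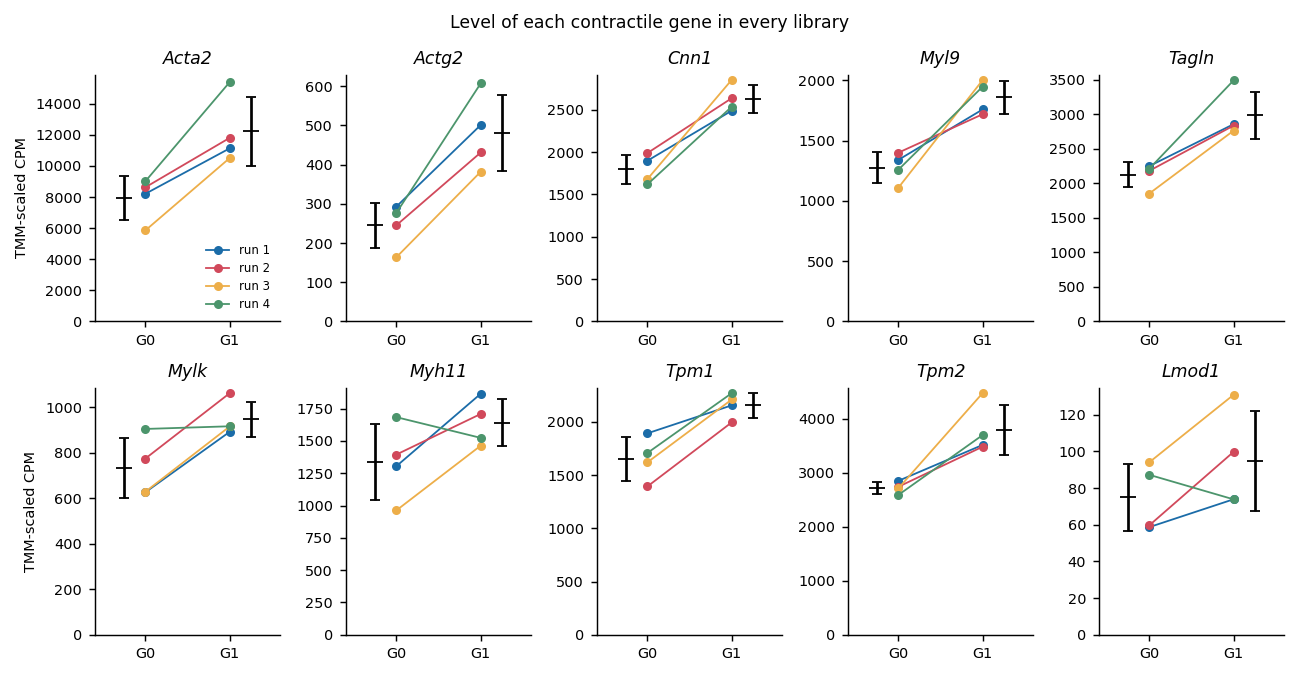
TMM-scaled CPM (vertical axes, linear, from 0) of each of the 10 contractile genes in the 4 G0 and 4 G1 libraries (horizontal axis), with a line joining the libraries of a run and, beside each group, its mean and SD. The groups are separate for 7 genes and overlap for Mylk, Myh11 and Lmod1, whose run 4 lines are nearly flat or fall.

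Together the 10 genes took 2.15%, 2.21%, 1.57% and 2.04% of the counts of the G0 libraries of runs 1 to 4. In G1 they took 2.80%, 2.88%, 2.56% and 3.19%. Every G1 share was above every G0 share. The mean share was 1.99% ± 0.289 in G0 and 2.86% ± 0.260 in G1 (SD, n = 4), a difference of 0.867 percentage points (two-sided exact permutation test, p = 0.0286, the smallest that 4 against 4 can give). With the libraries paired by run, an exact sign-flip test gave p = 0.125, the smallest that 4 pairs can give. With any 1 library left out the exact permutation p was 0.0571, the smallest for 3 against 4. Acta2 alone made up 39.6% ± 3.19 of the contractile counts in G0 and 42.2% ± 3.98 in G1.

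Actin forms the thin filament on which myosin pulls, and 2 smooth muscle actins were measured. Acta2 encodes the alpha (vascular type) and Actg2 the gamma (enteric type) actin. Their coding sequences are 84% identical over 1125 aligned bases, 945 of them the same, and the longest identical run is 29 bases. In a search for shared sequence, no stretch of 100 bases in the longest transcript of either gene occurred in a transcript of another gene. The stretch of 60 coding bases below (GENCODE M21 transcripts, positions counted from the first coding base, 436 to 495 of Acta2 and 433 to 492 of Actg2) is shown as an example of how these near-copies differ, with capitals at the 16 bases that differ.
Acta2: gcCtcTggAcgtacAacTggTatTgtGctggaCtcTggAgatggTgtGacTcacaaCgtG
Actg2: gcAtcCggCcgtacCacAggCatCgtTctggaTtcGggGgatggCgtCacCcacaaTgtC

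Acta2 (ENSMUSG00000035783, chr19:34241090-34255590, minus strand, GRCm38) stood at 8209, 8625, 5855 and 9014 CPM in the G0 libraries of runs 1 to 4. It stood at 11134, 11808, 10512 and 15398 CPM in the G1 libraries. The groups did not overlap, with run 3 lowest and run 4 highest in both. The G0 mean was 7926 ± 1419 CPM and the G1 mean 12213 ± 2188 CPM (SD, n = 4). The log2 fold change was 0.63 ± 0.10, or 1.54-fold (adjusted p = 0.000642, but 0.9999 with the phase alone). Within runs it was 0.44, 0.45, 0.84 and 0.77.

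Actg2 (ENSMUSG00000059430, chr6:83512905-83536265, minus strand) stood at 292.9, 245.3, 163.8 and 276.9 CPM in G0. In G1 it stood at 501.1, 431.0, 382.0 and 607.4 CPM. Here too the groups were separate, and run 3 was lowest in both. The means were 245 ± 57.5 and 480 ± 97.8 CPM (SD, n = 4), and the log2 fold change was 0.98 ± 0.11, or 1.98-fold (adjusted p = 7.15e-06, but 0.747 with the phase alone). The log2 differences within runs were 0.77, 0.81, 1.22 and 1.13, in each run the largest of the 10 genes.

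The ratio of Actg2 to Acta2 counts was higher in G1 by nearly the same factor in every run. In G0 it was 0.0357, 0.0284, 0.0280 and 0.0307, and in G1 it was 0.0450, 0.0365, 0.0363 and 0.0394, with no overlap. The log2 differences within runs were 0.34, 0.36, 0.38 and 0.36, with a mean of 0.36 and an SD of 0.017. This was 1 of 10 ratios compared, and its two-sided exact permutation p was 0.0286, or 0.0952 after Benjamini-Hochberg adjustment over the 10. The smallest exact p that 4 against 4 allows is 0.0286. The ratio of smooth muscle actins to the cytoplasmic actins, (Acta2+Actg2)/(Actb+Actg1), was 1.38 ± 0.344 in G0 and 1.90 ± 0.468 in G1 (SD, n = 4). It was higher in G1 in all 4 runs, but the groups overlapped (two-sided exact permutation p = 0.143, adjusted p = 0.238). Actb itself averaged 4938 ± 647 and 5761 ± 1157 CPM (SD, n = 4), with a log2 fold change of 0.21 ± 0.10 (adjusted p = 0.388). For Actg1, 51.1% of stretches of 100 bases also occur in other genes, so its counts are uncertain.

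The thick filament and its switch were represented by Myh11, the smooth muscle myosin heavy chain, by Myl9, the regulatory light chain, and by Mylk, the kinase that phosphorylates it. Of these, Myl9 was called higher in the blocked fit, and Myh11 and Mylk were not. Myl9 (ENSMUSG00000067818, chr2:156775420-156781658, plus strand) stood at 1340, 1400, 1109 and 1259 CPM in G0 and at 1760, 1720, 2004 and 1949 CPM in G1. The groups were separate, with run 3 lowest in G0 and highest in G1. The means were 1277 ± 126 and 1858 ± 139 CPM (SD, n = 4). The log2 fold change was 0.54 ± 0.11 (adjusted p = 0.00587, but 0.0560 without run 4 and 0.9999 with the phase alone).

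Myh11 (ENSMUSG00000018830, chr16:14194535-14291372, minus strand) stood at 1305, 1395, 963 and 1684 CPM in G0 and at 1866, 1709, 1464 and 1524 CPM in G1. The groups overlapped, since the G0 library of run 4 was above 2 of the G1 libraries. Within runs the log2 difference was 0.52, 0.29, 0.60 and -0.14. The fitted log2 fold change was 0.32 ± 0.11 (adjusted p = 0.216). Without run 4 it was 0.46 (adjusted p = 0.0502), and with offsets for transcript length and GC content it was 0.49 (adjusted p = 0.00102).

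Mylk (ENSMUSG00000022836, chr16:34745210-35002420, plus strand) stood at 626, 774, 629 and 904 CPM in G0 and at 892, 1062, 916 and 916 CPM in G1. The groups overlapped, since the G0 library of run 4 was above the G1 library of run 1. Within runs the log2 difference was 0.51, 0.46, 0.54 and 0.02, so the run 4 pair barely differed. The fitted log2 fold change was 0.38 ± 0.11 (adjusted p = 0.0876, but 0.0254 without run 4 and 0.0468 with DESeq2). With offsets for length and GC content it was 0.58 (adjusted p = 0.000147). The G0 library of run 4, the shallowest with 5868728 counts, stood apart. It had counts in 39094 genes, against 20836 to 26614 in the others, and 8.13% of its counts fell on the predicted gene Gm10800, against 1.71% or less elsewhere. Whether this plays a part in the run 4 values of Myh11, Mylk and Lmod1 was not tested.

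**Figure D2:**
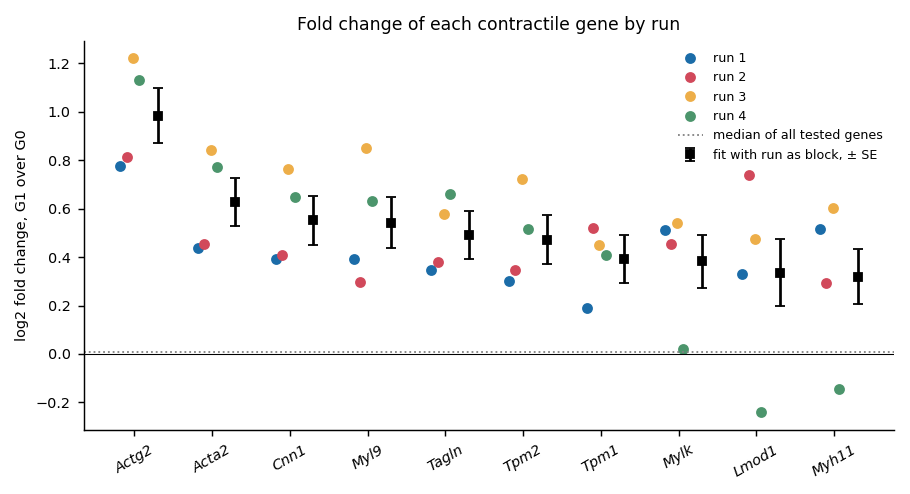
Log2 fold change, G1 over G0, of each contractile gene (horizontal axis) within each run (coloured points) and from the blocked edgeR fit (squares, with standard error), and the median of all tested genes (dotted line). Actg2, at the left, is highest at 0.98, and the run 4 points of Myh11 and Lmod1 lie below 0.

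Set against its non-muscle counterpart Myh9, whose product moves the cortex of most cells, Myh11 was higher in G1 in every run. The Myh11/Myh9 ratio of counts was 3.26, 3.91, 3.25 and 3.09 in G0 and 4.43, 5.38, 4.61 and 4.54 in G1, with no overlap. The log2 differences were 0.44, 0.46, 0.50 and 0.56, with a mean of 0.49 (two-sided exact permutation p = 0.0286, adjusted over the 10 ratios 0.0952). Myh9 itself averaged 400 ± 106 and 348 ± 49.6 CPM (SD, n = 4), with a log2 fold change of -0.17 ± 0.12 (adjusted p = 0.624). Within runs 1 to 4 its log2 difference was 0.07, -0.17, 0.10 and -0.70. In run 4 the ratio was thus higher in G1 although Myh11 itself was lower, at -0.14, since Myh9 was lower by more. The ratio of Myl9 to the non-muscle light chains Myl12a and Myl12b was 4.39 ± 1.55 in G0 and 5.01 ± 0.786 in G1 (SD, n = 4). It was lower in G1 in run 2, by a log2 difference of -0.42 (exact permutation p = 0.429 for the groups, adjusted p = 0.476). The light chain identifiers overlap in the annotation, and Myl12b had 2.95 CPM on average, so this denominator is nearly all Myl12a. Mylk against Ppp1r12a, the targeting subunit of the phosphatase that opposes it, was 5.68 ± 1.16 and 6.57 ± 0.779 (SD, n = 4; exact permutation p = 0.257, adjusted p = 0.321).

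Tropomyosin coils along the actin filament and governs access of myosin to it, and its genes Tpm1 and Tpm2 are among the contractile genes. Counts per gene do not separate the isoforms that each makes. Tpm2 (ENSMUSG00000028464, chr4:43514711-43523765, minus strand) stood at 2850, 2740, 2711 and 2589 CPM in G0 and at 3517, 3484, 4478 and 3700 CPM in G1. The G0 values lay close together, and the G1 library of run 3 was highest. The log2 fold change was 0.47 ± 0.10 (adjusted p = 0.0129, but 0.9999 with the phase alone). Leaving out run 3 gave an adjusted p of 0.0545, and leaving out run 4 one of 0.0651. Tpm1 (ENSMUSG00000032366, chr9:67022590-67049406, minus strand) stood at 1892, 1393, 1620 and 1708 CPM in G0 and at 2156, 1996, 2210 and 2270 CPM in G1. Its groups were separate, but its call was the closest to the threshold. The log2 fold change was 0.39 ± 0.10 (adjusted p = 0.0487, 0.0518 with RLE size factors, and 0.0638 to 0.192 with any 1 run left out). With the phase alone its adjusted p was 0.9999.

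The balance of the tropomyosin pair did not shift one way in every run. Tpm2/Tpm1 was 1.67 ± 0.215 in G0 and 1.76 ± 0.187 in G1 (SD, n = 4; exact permutation p = 0.486, adjusted p = 0.486), higher in G1 in 3 runs and lower in run 2. Against the tropomyosin genes Tpm3 and Tpm4, the ratio (Tpm1+Tpm2)/(Tpm3+Tpm4) was 2.75 ± 0.256 and 3.48 ± 0.681 (SD, n = 4). It was higher in all 4 runs, with groups that overlapped (exact permutation p = 0.114, adjusted p = 0.229).

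Calponin and transgelin are actin-binding proteins of smooth muscle, and both genes were called higher in the blocked fit. Cnn1 (ENSMUSG00000001349, chr9:22099216-22109630, plus strand), whose product inhibits the myosin ATPase, stood at 1898, 1989, 1681 and 1619 CPM in G0 and at 2490, 2638, 2855 and 2537 CPM in G1. Its groups were separate and narrow, at 1797 ± 175 and 2630 ± 162 CPM (SD, n = 4). The log2 fold change was 0.55 ± 0.10 (adjusted p = 0.00324, but 0.9999 with the phase alone). Cnn1 was called in the blocked fit whichever run was left out, as were Acta2 and Actg2. The ratio of Cnn1 to the calponin gene Cnn2 was 3.58 ± 0.371 and 3.95 ± 0.269 (SD, n = 4; exact permutation p = 0.2, adjusted p = 0.286). A further calponin gene, Cnn3, averaged 635 and 750 CPM in G0 and G1 and was not part of that ratio.

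Tagln (ENSMUSG00000032085, chr9:45929619-45936058, minus strand) stood at 2250, 2182, 1853 and 2213 CPM in G0 and at 2858, 2838, 2765 and 3494 CPM in G1. The groups were separate, with the G1 library of run 4 well above the rest. The log2 fold change was 0.49 ± 0.10 (adjusted p = 0.00758, but 0.0610 without run 4 and 0.9999 with the phase alone). Tagln/Tagln2, its ratio to the transgelin of non-muscle cells, was 1.63, 1.64, 1.51 and 1.62 in G0 and 2.24, 2.34, 2.39 and 2.46 in G1. These values did not overlap, and the mean log2 difference was 0.56 (two-sided exact permutation p = 0.0286, adjusted over the 10 ratios 0.0952). The Tagln count is uncertain: the antisense gene Gm48529 overlaps 1241 of its 1988 exonic bases and had 2386 CPM on average against 2557 for Tagln. Whether the counting used strand is not stated in the labels. Mylk overlaps 2 antisense genes by 548 and 224 bases, over 11263 exonic bases.

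Lmod1, leiomodin, which starts new actin filaments in smooth muscle, was the least abundant of the 10. Lmod1 (ENSMUSG00000048096, chr1:135324807-135368065, plus strand) stood at 58.7, 59.7, 94.0 and 87.2 CPM in G0 and at 73.9, 99.8, 130.9 and 73.8 CPM in G1. The groups overlapped, and in run 4 G1 was lower. The log2 fold change was 0.34 ± 0.14 (adjusted p = 0.289).

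**Figure D3:**
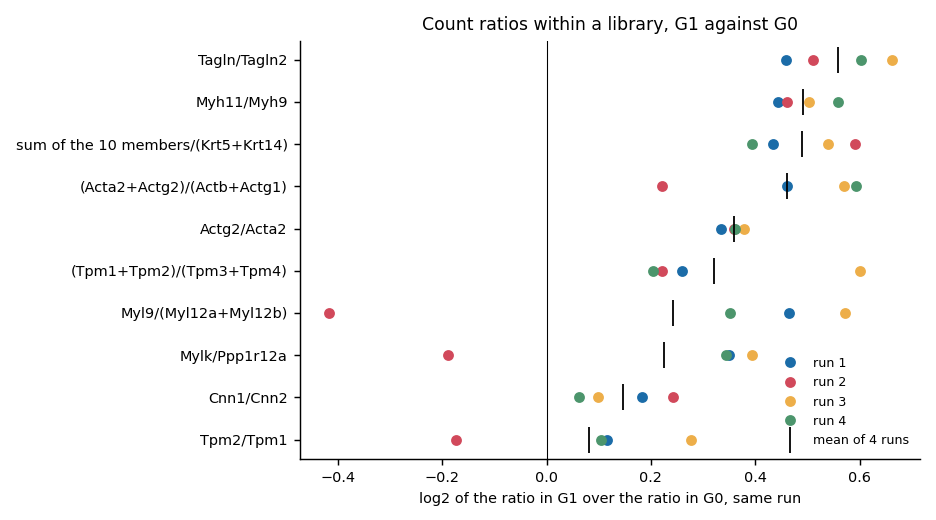
Log2 difference, G1 minus G0, of 10 ratios of counts within a library, by run (coloured points), with the mean of the 4 runs as a vertical bar. Actg2/Acta2 lies between 0.34 and 0.38 in all 4 runs, and Myl9/(Myl12a+Myl12b) spreads from -0.42 to 0.57.

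Levels of different genes can be compared only per length, here as CPM per kilobase of merged exonic length, which counts all isoforms of a gene. That length can exceed any single transcript. It was 6485 bases for Tpm1, 11263 for Mylk and 2909 for Tpm2, against 2890, 7824 and 2175 for their longest transcripts. The places below depend on this choice, and another length would change some of them. In G0 the order was Acta2 at 3609, Myl9 at 1099, Tagln at 1069, Tpm2 at 936 and Cnn1 at 657 CPM per kilobase. Below them came Tpm1 at 255, Myh11 at 176, Actg2 at 157, Mylk at 65.1 and Lmod1 at 19.0. Library ranges overlapped between the neighbours Myl9 and Tagln, Tagln and Tpm2, Tpm1 and Myh11, and Myh11 and Actg2, and between no other neighbours. In G1 Acta2 stood at 5561 CPM per kilobase and Actg2, at 309, came before Myh11, at 216, with ranges that overlapped. All other places were the same in both phases. As a pattern over the 8 libraries, log2 CPM of Myl9 and Tagln followed the mean of the other 9 genes most closely (Pearson r = 0.950 and 0.940). Myh11 and Lmod1 followed it least (0.663 and 0.248). These coefficients are descriptions, since the libraries share runs and the phase difference.

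Start-site sequence was examined for CArG boxes on both strands, in windows from 250 bases before to 50 bases after a RefSeq start (GRCm38.p6). Such a window was at hand for 7 of the 10 genes, so Actg2, Tagln and Myh11 were not examined. The Mylk window, chr16:34784700-34784999, lies inside the gene as placed above and not at its first base. An exact match lay in 1 of the 7, Myl9, against 1.63% of 32851 promoters. Matches with at most 1 mismatch in the 6 middle bases lay in 2 of the 7, Myl9 and Acta2, against 9.98%. The windows below are shown because these are the matches found, with the box in capitals. A match is a run of letters, not a measured binding site. Positions are chr2:156775293-156775322 and chr2:156775355-156775384, plus strand, for Myl9, and chr19:34255438-34255467 and chr19:34255388-34255417, minus strand, for Acta2, in the order shown. The boxes begin 161, 99, 84 and 34 bases before the start.
Myl9, exact: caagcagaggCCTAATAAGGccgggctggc
Myl9, 1 mismatch: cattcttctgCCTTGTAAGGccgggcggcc
Acta2, 1 mismatch: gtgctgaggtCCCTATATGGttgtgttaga
Acta2, 1 mismatch: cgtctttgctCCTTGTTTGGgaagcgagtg

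The rest of the contraction pathway was read from 6 further lists. Of 74 tested genes on them, 1 was called higher and 0 lower in the blocked fit, against the 0.481% and 0.764% of all tested genes given above. The called gene was Ppp1r14a, which encodes CPI-17, an inhibitor of myosin light chain phosphatase. Its means were 9.86 ± 1.24 and 16.6 ± 1.40 CPM in G0 and G1 (SD, n = 4), with separate groups. Its log2 fold change was 0.77 ± 0.19 (adjusted p = 0.0451), positive in all 4 runs, and its adjusted p was 0.0661 to 0.162 with any 1 run left out. It belongs to the light chain phosphorylation list, of which 13 genes were tested, with a median of 0.07. The calmodulin gene Calm3 had 0.29 ± 0.12 (adjusted p = 0.319).

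Among the other lists 0 genes were called. The 7 tested genes of other actins and of filament ends had a median of 0.05, and Actc1, cardiac actin, had 1.10 ± 0.51 at 1.06 and 2.58 CPM (adjusted p = 0.370). The 6 other myosin motors and light chains had a median of 0.02, with the essential light chain Myl6 at 0.41 ± 0.11 (adjusted p = 0.0593) and Myl12a at 0.30 ± 0.12 (adjusted p = 0.268). The 9 other thin filament regulators had a median of 0.20, with Cnn2 at 0.41 ± 0.11 (adjusted p = 0.0743) and Cnn3 at 0.24 ± 0.11 (adjusted p = 0.374). The 28 genes of dense plaques and anchoring, which tie filaments to the membrane and matrix, had a median of 0.09. Csrp1, a LIM protein, had 0.29 ± 0.10 (adjusted p = 0.172) and Ilk, the integrin-linked kinase, 0.31 ± 0.11 (adjusted p = 0.203).

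The 11 tested genes of contraction signals and serum response factor had a median of -0.04. Kcnmb1, a potassium channel subunit of smooth muscle, had 0.52 ± 0.14 (adjusted p = 0.0636), and Klf4, a repressor of smooth muscle genes, had -0.26 ± 0.13 (adjusted p = 0.438). Oxtr, the oxytocin receptor, averaged 276 ± 34.9 and 319 ± 53.4 CPM (SD, n = 4), with 0.21 ± 0.11 (adjusted p = 0.489). Srf, serum response factor itself, had 0.24 ± 0.13 (adjusted p = 0.507). Myocd, myocardin, was too low to test, at 0.90 and 0.44 CPM.

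**Figure D4:**
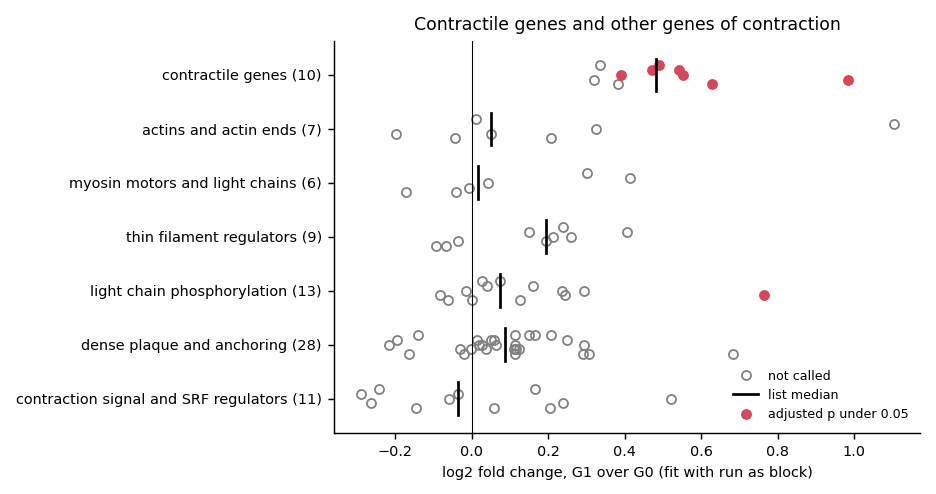
Log2 fold change, G1 over G0, of every tested gene of the 10 contractile genes and of 6 other contraction lists, from the blocked edgeR fit (horizontal axis), with called genes filled and list medians as vertical bars. The contractile genes have a median of 0.48, and the medians of the other lists lie between -0.04 and 0.20.

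The 8 other genes whose pattern over the 8 libraries was most like the mean of the 10 were chosen by Pearson r among 10035 candidates. They were Ppp1r14a (0.976), Gm48529 (0.962), Mrpl55 (0.942), Ccdc90b (0.937), Bok (0.925), Igfbp2 (0.907), Spon2 (0.904) and Inafm2 (0.901). Gm48529 is the overlapping neighbour of Tagln named above. Igfbp2, a binding protein of insulin-like growth factors, averaged 159 ± 62.0 and 388 ± 59.8 CPM (SD, n = 4). Its log2 fold change was 1.36 ± 0.22 (adjusted p = 0.0355, but 0.0590 without run 2).

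Markers of the labelled cells were present in both phases. Krt14 averaged 7999 ± 986 and 8270 ± 1030 CPM, and Krt5 averaged 1829 ± 453 and 1857 ± 180 CPM (SD, n = 4). Of 10 basal epithelial markers 0 were called, and their summed level was 15686 to 19791 CPM in G0 and 17653 to 19138 CPM in G1. The 10 contractile genes against the sum of Krt5 and Krt14 gave a ratio of counts of 2.06 ± 0.417 in G0 and 2.87 ± 0.436 in G1 (SD, n = 4). It was higher in G1 in all 4 runs, by log2 differences of 0.43, 0.59, 0.54 and 0.39, but the groups overlapped (two-sided exact permutation p = 0.0571, adjusted over the 10 ratios 0.143).

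Blood vessel smooth muscle and pericytes use the same contractile genes, so their own markers were read. Of 20 such markers 15 were tested and 0 were called; 7 of the 15 had a positive fold change, and the median was -0.10. Their summed level was 421 to 658 CPM in G0 and 427 to 617 CPM in G1. Most of that sum came from Mcam, at 255 and 239 CPM on average, and Rasl12, so it says little about the other markers. None was at 0 in all 8 libraries, but Rergl was at 0 in every G1 library, Myocd was below 1 CPM on average, and Rgs5, a defining pericyte gene, averaged 7.39 and 5.82 CPM, with a log2 fold change of -0.27 ± 0.31 (adjusted p = 0.794). Ntf3, the gene of smallest p on the list, averaged 3.48 ± 1.59 and 7.05 ± 1.39 CPM (SD, n = 4), with 1.11 ± 0.30 (adjusted p = 0.0700), higher in G1 in all 4 runs and with separate groups. Vtn, the next, averaged 2.08 and 0.55 CPM, with -2.07 ± 0.67 (adjusted p = 0.158). Des, desmin, averaged 4.63 and 7.39 CPM, with 0.68 ± 0.26 (adjusted p = 0.237), and was also higher in G1 in all 4 runs, though its groups overlapped. Rasl12, at 152 and 167 CPM, had 0.15 ± 0.12 (adjusted p = 0.680), and Casq2, at 7.18 and 8.27 CPM, had 0.19 ± 0.26 (adjusted p = 0.835). The other positive markers were Notch3 at 0.07 ± 0.67, Sncg at 0.04 ± 0.14 and Itga8 at 0.002 ± 0.14 (adjusted p = 0.944 to 0.998). The fold change was negative for 8 of the 15. Among them Kcnj8 had -0.55 ± 0.37 (adjusted p = 0.596) and was lower in G1 in every run. Pdgfrb had -0.32 ± 0.21, Cspg4 -0.49 ± 0.42, Cox4i2 -0.64 ± 0.55 and Heyl -0.51 ± 0.55 (adjusted p = 0.584 to 0.780). Of 14 tested endothelial markers 13 were called lower in G1 in the blocked fit. Their summed level was 199.9 to 431 CPM in G0 and 45.8 to 173 CPM in G1. Most fibroblast markers had a negative fold change, 7 of the 9 tested, and the median was -0.69. In all 4 runs 5 of them were lower in G1 and 0 were higher, and 4 were called lower (Col1a1, Col1a2, Lum and Pi16). Dcn, 1 of the 2 with a positive fold change, averaged 178 ± 83.6 and 255 ± 62.7 CPM (SD, n = 4), with 0.58 ± 0.16 (adjusted p = 0.0973). The summed level of the fibroblast markers was 212 to 929 CPM in G0 and 249.7 to 623 CPM in G1. That sum was higher in G1 in runs 1, 2 and 4 and lower in run 3. Of 4 tested adipocyte markers 2 were called lower (Lpl and Cd36), with sums of 283 to 539 and 46.5 to 252 CPM. Of 8 tested skeletal muscle markers 0 were called, with sums of 11.2 to 67.7 and 19.9 to 64.7 CPM. Luminal markers had 0 of 13 called, with sums of 1957 to 3462 and 1988 to 3065 CPM, and immune markers 0 of 4, with sums of 28.0 to 74.1 and 26.9 to 55.3 CPM. The part of these other cells in the contractile differences was not tested.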

How the data were processed

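The authors deposited whole-number read counts for each Ensembl gene, not normalized, in 1 table with 1 column per library. Per the labels' protocols, oligo-dT selected RNA went into stranded libraries. Per the submitters' processing notes, Trimmomatic 0.35, STAR 2.5.2a and mm10 were used, while the program that counted reads, its annotation and any use of strand are not stated in the sources used. Totals were 5868728 to 15014104 counts per library. Symbols (54808 of 54837 identifiers) and positions are those of GENCODE M21.

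The test was edgeR 4.0.16's quasi-likelihood test in R 4.3.3 (TMM, filterByExpr, robust, two-sided, phase alone). The same run number gave correlated deviations from the group means in G0 and G1 (r = 0.668, 0.470, 0.638 and 0.437, against at most 0.0971 between runs). The pairing comes from the run in the titles and from these correlations, so a fit with run as replicate block is given beside the other. The spread between libraries (biological coefficient of variation) was 34.9% without and 16.9% with the block. Standard errors were obtained by dividing each log2 fold change, without its sign, by the root of its F value. Log2 values within runs used a prior count of 2. Ratios and shares were tested by exact permutation (scipy 1.17.1). Scripts were tested on simulated data. No 2 libraries of a group were copies (chi-square per degree of freedom 24.0 to 110).

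The contractile genes and all lists were chosen with earlier results of these data known. All 10 genes are named. From the other contraction lists, genes called with the block, the genes of the ratios and the 2 of smallest p are named, and not every one is given with values. Oxtr, Srf, Myocd and the marker genes other than Krt5 and Krt14, and Igfbp2 among the 8 nearest patterns, were picked for description after their values were seen. Alternatives were RLE factors, other count filters, DESeq2 1.42.0, limma-voom (limma 3.58.1), the block with each, offsets for length and GC, and libraries or runs left out.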

Additional observations from a re-analysis of the deposited data

Results flagged for a closer look

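In 3 of 42 groups of 4 libraries, 1 library stood far from the other 3 by Dixon's criterion, which chance alone meets in about 1 group in 20. In G1, Tagln stood at 3494 CPM in run 4, against 2765, 2838 and 2858 CPM in the other runs. In G1, Mylk stood at 1062 CPM in run 2, against 892, 916 and 916 CPM. In G0, the ratio (Tpm1+Tpm2)/(Tpm3+Tpm4) was 2.37 in run 2, against 2.87, 2.87 and 2.90.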

How the results depend on the processing

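With the phase alone, edgeR called 0 of the 10 contractile genes and 0 of all genes. Without a low-count filter 1 contractile gene and 87 genes in all were called, and with DESeq2 1 and 34, the contractile gene being Actg2 both times. The unfiltered fit tested 42494 genes, whose median fold change was -0.82. With the replicate block the counts were 7 and 189, with the block and at least 10 counts in all libraries 6 and 145, with the block and RLE factors 6 and 197, with the block and DESeq2 8 and 233, with the block and limma-voom 7 and 197, and with the block and length and GC offsets 9 and 269. The offsets also moved the split of all calls from 73 higher and 116 lower to 134 and 135. Leaving out libraries or runs gave 0 to 6 contractile genes and 0 to 274 genes in all. In the blocked fit the contractile calls, all higher in G1, were 6, 6, 5 and 4 without runs 1 to 4. Beside them, 99, 63, 73 and 21 of all 15525, 15385, 15289 and 15227 tested genes were called higher. The calls over all genes thus also fell most without run 4. Without run 4 the contractile calls were Acta2, Actg2, Cnn1 and Mylk. No contractile fold change turned negative in any of these fits. The share difference of 0.867 percentage points had an exact sign-flip p of 0.125 over paired runs, the smallest that 4 pairs allow, and leaving out 1 library gave 0.727 to 0.966, with exact permutation p no lower than 0.0571, the smallest for 3 against 4. After adjustment 0 of the 10 ratios passed under any setting run, but most settings could not have called one. With 1 library left out, the smallest exact permutation p is 0.0571, above the threshold before any adjustment. With all 8 libraries it is 0.0286, so a ratio could pass the adjustment only if several ratios reached that p together. Paired by run, the ratios had exact sign-flip p no lower than 0.125, so that test could call none of them. The cause of these differences between settings was not tested. Lmod1, the least abundant of the 10, had 488 to 1331 counts per library.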
